A study of Mus musculus with 9 samples.

Results

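The genes described here are 10 enzymes of nitrogen, glucose and amino acid metabolism in hepatocytes: Cps1, Otc, Ass1, Asl and Arg1 of the urea cycle, Pck1, G6pc and Fbp1 of gluconeogenesis, and Tat and Tdo2, which start the breakdown of tyrosine and tryptophan. They were chosen by symbol, and all 10 were found among the 21878 symbols of the count table. The values come from WT-GFP cells, replicates 1 and 2 of 3, which are hepatocytes of wild-type C57BL/6 mice that were reprogrammed to liver progenitors with growth factors and small molecules, transduced with a GFP lentivirus, redifferentiated for 3 weeks and given copper chloride for 24 hours. The copper dose is 100 µM in the protocols, and the treatment field gives the same figure in mM. The growth protocol calls the wild-type cells WT-ATP7B, while the titles and the design text say GFP, and the name in the titles is used here. The labels give neither the promoter of the lentiviral GFP nor whether replicates are different mice, cultures or runs of the same cells, and differences between these libraries may be technical. The study also has 3 KO-ATP7B and 3 KO-GFP samples from Atp7b-/- cells. Of the 9 count columns, 7 carry only a number that matches no sample label and were not used here, so no genotype or vector was compared. Columns 7 and 8 were tied to WT-GFP replicates 1 and 2 by inference from the same number in the names and headers of those samples' own files.

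The urea cycle turns ammonia from amino acid breakdown into urea, and in the adult liver it runs in hepatocytes around the portal vein, where gluconeogenesis is also concentrated. Many genes of both routes rise around birth, answer to glucagon, cAMP and glucocorticoids, and depend on HNF4A and C/EBP factors. Their transcripts are widely used as a test of maturity in hepatocytes grown in culture.

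Replicate 1 held 18532457 counts and replicate 2 held 17821682. For a gene at 0, the limit of 3 counts corresponds to 0.162 CPM (counts scaled to the library total) in replicate 1 and 0.168 CPM in replicate 2. Hepatocyte markers were abundant: 8 of 9 reached 10 FPKM (the deposited level, scaled to library total and gene length), and their median was 418 FPKM. Biliary and progenitor markers were present as well, 6 of 8 at 10 FPKM or more with a median of 24.1 FPKM and a sum of 1686 and 1632 FPKM in replicates 1 and 2, most of it Cd24a, Spp1 and Krt19. Mesothelial markers were uneven: Msln stood at 1159 FPKM and 2 of 5 reached 10 FPKM, while Wt1 had 19 and 11 counts and Lrrn4 had 0 in both libraries. The endothelial markers Cdh5, Stab2, Lyve1 and Clec4g, the stellate markers Pdgfrb and Acta2 and the macrophage markers Adgre1, Clec4f and Marco had 0 counts in both libraries. Of the kidney proximal tubule markers, listed because that tissue shares gluconeogenesis, Slc34a1, Slc5a2 and Umod had 0 counts. The summed markers came to 2.77 and 3.60 FPKM for 7 endothelial genes, 1.41 and 1.45 FPKM for 8 stellate genes, 16.7 and 21.9 FPKM for 7 macrophage genes, most of it Cd68, and 0.393 and 0.417 FPKM for 5 kidney genes in replicates 1 and 2. The part of other cell types in the levels below was not tested.

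Asl was the single enzyme of the 10 whose mean level exceeded 2 FPKM. Of the 10, 3 had a mean of 1 FPKM or more and 1 of 10 FPKM or more, against 48.8% and 27.1% of all symbols. The median of the 10 was 0.411 FPKM, beside 0.782 FPKM over all symbols and 5.66 FPKM over the 15545 genes with a count. In sum the 10 genes took 56.6 CPM in replicate 1 and 54.3 CPM in replicate 2, and Asl alone made up 74.4% of these counts in replicate 1 (95% exact Clopper-Pearson interval 71.6 to 77.0%) and 72.7% in replicate 2 (69.8 to 75.5%). With exon lengths from GENCODE in place of those behind the deposited FPKM, 2 of the 10 reached 1 FPKM, because Ass1 came to 0.868 FPKM, and 0 reached 10 FPKM, because Asl came to 8.44 FPKM. In bulk libraries, fewer cells that express a gene and less RNA per cell cannot be told apart. Intervals and limits cover counting error only, as the reads carry no molecular identifiers.

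**Figure D1:**
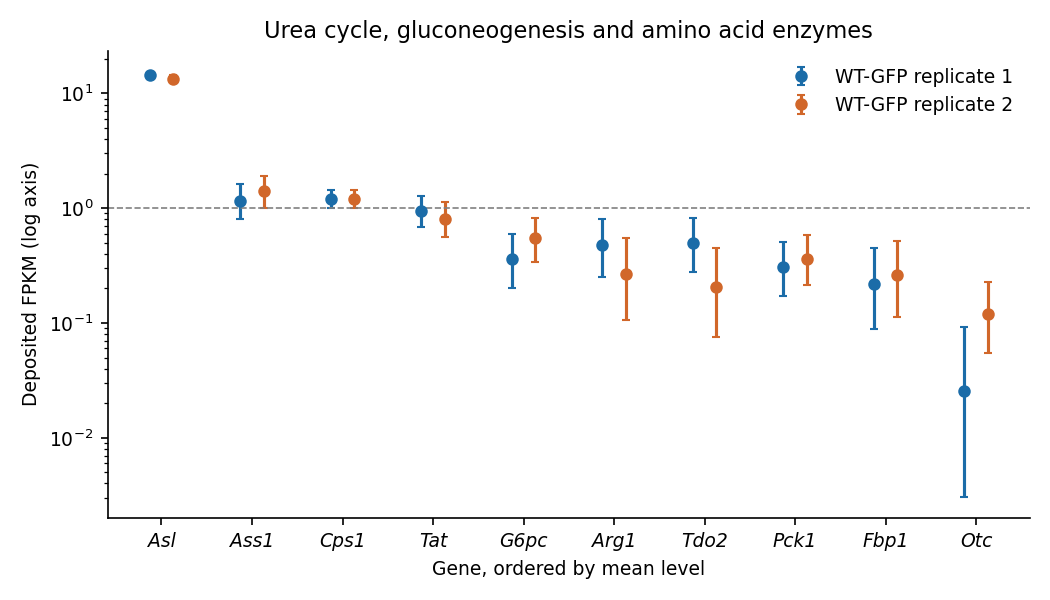
Deposited FPKM (log axis) of the 10 enzymes in WT-GFP replicate 1 (blue) and replicate 2 (orange), ordered by mean level; bars are 95% exact Clopper-Pearson intervals of the counts, and the dashed line marks 1 FPKM. Asl stands at 14.3 and 13.4 FPKM, Ass1 and Cps1 lie just above the line, and 7 genes lie below it.

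The urea cycle enzymes spanned a wide range of levels. Cps1, the mitochondrial enzyme that fixes ammonia into carbamoyl phosphate (ENSMUSG00000025991.8, chromosome 1, 67123026 to 67231259, plus strand, GRCm38), had 125 and 120 counts, or 1.21 FPKM in both libraries (intervals 1.01 to 1.44 FPKM in replicate 1 and 1.00 to 1.44 FPKM in replicate 2). Otc, which joins carbamoyl phosphate to ornithine (chromosome X, 10252305 to 10321024, plus strand), had 2 and 9 counts, 0.0254 FPKM (0.00308 to 0.0917 FPKM) and 0.119 FPKM (0.0543 to 0.226 FPKM). Cps1 was thus detected by about 120 reads a library. Otc rests on 9 reads in replicate 2 and on 2 in replicate 1, fewer than the limit of 3 counts used for a gene at 0. Ass1, which adds aspartate to citrulline (chromosome 2, 31470207 to 31520672, plus strand), gave 35 and 41 counts, 1.16 FPKM (0.807 to 1.61 FPKM) and 1.41 FPKM (1.01 to 1.91 FPKM). Asl, which splits argininosuccinate into arginine and fumarate (chromosome 5, 130011258 to 130029247, minus strand), was counted 780 and 703 times, at 14.3 FPKM (13.3 to 15.4 FPKM) and 13.4 FPKM (12.5 to 14.5 FPKM). Asl lay above 69.2% of genes with a count and Otc above 15.1%. Arg1, the cytosolic arginase that releases urea (chromosome 10, 24915221 to 24927484, minus strand), was counted 13 and 7 times, at 0.475 and 0.266 FPKM.

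Each of the gluconeogenic enzymes was low in both libraries. Pck1, the cytosolic enzyme that makes phosphoenolpyruvate from oxaloacetate (chromosome 2, 173153048 to 173159273, plus strand), had 15 and 17 counts, 0.309 FPKM (0.173 to 0.510 FPKM) and 0.364 FPKM (0.212 to 0.584 FPKM). Fbp1, which removes a phosphate from fructose bisphosphate (chromosome 13, 62864753 to 62888282, minus strand), was counted 7 and 8 times, at 0.220 and 0.261 FPKM. G6pc, which releases free glucose at the last step (chromosome 11, 101367561 to 101377903, plus strand), had 15 and 22 counts, 0.358 and 0.546 FPKM. None of these 3 genes reached 1 FPKM in either library.

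The enzymes that open amino acid breakdown were low too. Tat, the tyrosine aminotransferase (chromosome 8, 109990437 to 109999803, plus strand), had 42 and 34 counts, 0.953 and 0.803 FPKM. Tdo2, the liver tryptophan dioxygenase (chromosome 3, 81957090 to 81976202, minus strand), was counted 15 and 6 times, at 0.495 and 0.206 FPKM, or a mean of 0.148 FPKM with GENCODE exon lengths. Both had values below 1 FPKM in each library. The Tat intervals reached above 1 FPKM in both (0.687 to 1.29 FPKM in replicate 1 and 0.556 to 1.12 FPKM in replicate 2). In the order of mean deposited FPKM the genes ran Asl, Ass1, Cps1, Tat, G6pc, Arg1, Tdo2, Pck1, Fbp1 and Otc. The intervals of neighbours overlapped in both libraries for 7 of the 9 neighbouring pairs. The exceptions were Asl above Ass1, apart in both libraries, and Tat above G6pc, apart in replicate 1 and overlapping in replicate 2. With GENCODE exon lengths Cps1 (1.21 FPKM) came above Ass1 and Tat (both 0.868 FPKM), and Tdo2 (0.148 FPKM) came below Pck1 (0.257 FPKM) and Fbp1 (0.243 FPKM). None of the 10 genes is overlapped by another gene in GENCODE M21.

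The start regions of the cytosolic and mitochondrial forms of phosphoenolpyruvate carboxykinase and of the liver and widely expressed forms of glucose 6-phosphatase are shown because in both pairs the liver form stood far below the other in each library. Each line is the 250 bases before the transcription start given by RefSeq on GRCm38.p6, 5′ to 3′ on the plus strand: Pck1 at chr2:173152823-173153072, Pck2 at chr14:55540016-55540265, G6pc at chr11:101367466-101367715 and G6pc3 at chr11:102189449-102189698. Capitals mark matches to TATAAA, to TGACG, the core shared by many cAMP response elements, and to TTACGTCA, the cAMP response element known from the rat Pck1 promoter, searched on both strands. A TGACG match lies within TTACGTCA in Pck1. GENCODE starts Pck1, G6pc and G6pc3 before the ends of these windows, at 173153048, 101367561 and 102189620. Part of each of these windows, with the G6pc TATAAA match, thus lies within the gene as GENCODE places it.
Pck1: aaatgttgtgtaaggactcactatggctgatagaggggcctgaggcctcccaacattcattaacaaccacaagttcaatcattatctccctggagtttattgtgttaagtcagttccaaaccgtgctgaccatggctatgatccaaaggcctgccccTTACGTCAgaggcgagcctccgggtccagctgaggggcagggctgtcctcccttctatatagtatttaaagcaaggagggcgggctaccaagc
Pck2: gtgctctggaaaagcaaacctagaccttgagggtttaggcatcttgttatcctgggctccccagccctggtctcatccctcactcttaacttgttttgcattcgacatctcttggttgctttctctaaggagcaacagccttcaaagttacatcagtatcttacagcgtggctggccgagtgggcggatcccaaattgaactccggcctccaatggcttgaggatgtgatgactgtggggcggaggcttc
G6pc: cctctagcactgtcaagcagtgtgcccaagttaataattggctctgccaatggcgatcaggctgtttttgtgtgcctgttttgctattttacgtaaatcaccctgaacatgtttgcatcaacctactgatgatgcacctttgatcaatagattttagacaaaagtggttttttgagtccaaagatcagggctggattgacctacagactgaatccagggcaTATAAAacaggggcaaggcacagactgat
G6pc3: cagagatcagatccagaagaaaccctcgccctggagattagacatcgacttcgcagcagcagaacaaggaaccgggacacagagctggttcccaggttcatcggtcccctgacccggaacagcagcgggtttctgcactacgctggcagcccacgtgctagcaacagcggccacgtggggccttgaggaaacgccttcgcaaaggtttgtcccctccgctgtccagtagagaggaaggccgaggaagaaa

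Of the 32851 windows of this length in the table, 12.4% hold TATAAA, 17.8% hold TGACG and 0.447% hold TTACGTCA. Pck1 has the TTACGTCA match and G6pc has the TATAAA match. None of these 3 motifs is in the Pck2 or G6pc3 window, which says only that these letters are not there. Only exact matches were searched in every window, so a window without one may hold a variant. The G6pc window, for instance, holds ttacgtaa, 1 base from TTACGTCA. The Fbp1 and Fbp2 pair ran otherwise: Fbp2 has 1 TGACG match, while Fbp1 holds none of the motifs. Cad has 2 TGACG matches, but Cps1 has no window to set beside it. Tdo2 has a TATAAA match, and the Ass1, Otc and Tat windows hold none of the 3. By GENCODE positions the Tdo2 window lies wholly within its gene, and the Ass1 and Fbp2 windows lie partly within theirs. CpG dinucleotides numbered 5 in the Pck1 window and 6 in the Pck2 window, and 2 in the G6pc window and 15 in the G6pc3 window, against a median of 6 over all windows. Windows were found for 7 of the 10 enzymes, all but Cps1, Asl and Arg1. Besides Pck1 and G6pc, Ass1 had 23 CpG, Fbp1 5, Tat 3, Tdo2 3 and Otc 1.

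In 2 pairs a form of the enzyme that is not confined to liver stood far above the liver form. Pck1 stood at 0.419% of Pck2, the mitochondrial form, per gene length over both libraries (95% exact interval 0.286 to 0.592%), with 0.393% in replicate 1 and 0.445% in replicate 2. Pck2 itself had 4962 and 4969 counts, 78.7 and 81.9 FPKM, and ranked 826 of all symbols, so the mitochondrial form was the abundant transcript of the pair. GENCODE lists an antisense gene, Gm10876, over 2134 bases of Pck2, and whether the counting used strand is unknown from the labels. With GENCODE exon lengths the Pck1 share was 0.734%, a larger share but the same order. G6pc stood at 3.74% of G6pc3 (2.61 to 5.21%), the form found in most tissues, which had 342 and 334 counts, 12.0 and 12.1 FPKM. G6pc was lower than G6pc3 in both libraries, at 3.00% in replicate 1 and 4.50% in replicate 2.

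Cps1 stood at 11.8% of Cad (10.3 to 13.4%), the pyrimidine synthesis protein whose own carbamoyl phosphate synthetase works in the cytosol of dividing cells. Cad had 1284 and 1425 counts, 9.53 and 11.0 FPKM. Fbp1 stood at 40.4% of Fbp2 (20.0 to 78.2%), the muscle form, with 0.625 and 0.564 FPKM of Fbp2, and the single-library interval of this share reached above 100% in replicate 2 (16.7 to 121%). The liver form was thus below its counterpart for Pck1, G6pc and Cps1 in both libraries, while for Fbp1 the counts were too few to place it in replicate 2.

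Arg1 and Tdo2 had higher values than their counterparts, for Arg1 by no more than counting error. The ratio of Arg1 to Arg2, the mitochondrial arginase at 0.152 and 0.198 FPKM, was 2.13 (0.928 to 5.32), and the interval includes equal levels. Part of Arg2 overlaps Vti1b on the other strand, so its few reads are uncertain. Ido1, the inducible tryptophan dioxygenase of immune cells, had 0 and 2 counts. The ratio of Tdo2 to Ido1 over both libraries was 11.4 (2.78 to 100.05), and 4.94 with GENCODE exon lengths. In replicate 2 alone it was 3.25 (0.581 to 32.9), and in replicate 1, where Ido1 had 0 counts, the lower limit of the exact interval was 3.89. Ido2 had 3 and 6 counts, and G6pc2, the form of pancreatic islets, had 0 in both libraries.

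**Figure D2:**
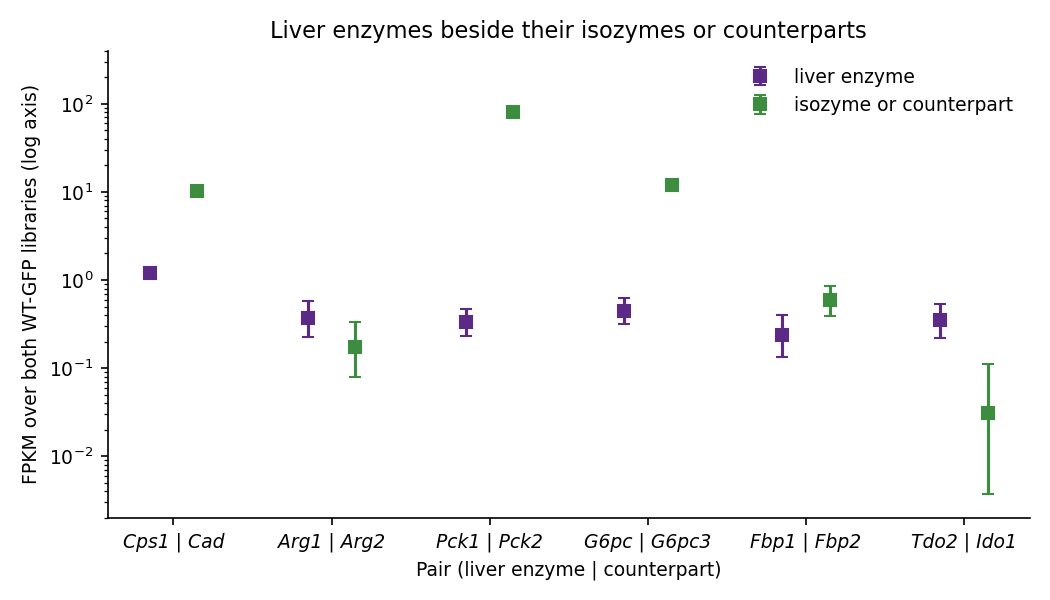
Level per gene length (FPKM over both WT-GFP libraries, log axis) of each liver enzyme (purple, left) and its isozyme or counterpart (green, right); bars are 95% exact Poisson intervals of the summed counts. Pck1 lies furthest below its partner, at 0.419% of Pck2, and Tdo2 lies above Ido1, which rests on 2 reads.

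Genes listed around ureagenesis but outside the cycle, not all of which supply it, ranged from abundant to barely detected. Of 10, 5 reached 10 FPKM and 3 were below 1 FPKM, with a median of 10.8 FPKM. The highest were Glud1, the glutamate dehydrogenase (226 ± 11.9 FPKM, SD, n = 2), Got2, the mitochondrial aspartate aminotransferase (136 ± 1.20 FPKM), and Glul, the glutamine synthetase (81.3 ± 13.7 FPKM). In GENCODE Glul overlaps Teddm2 on the other strand over 285 bases. The lowest were Slc25a2 with 0 and 1 counts and Car5a, the mitochondrial carbonic anhydrase that feeds bicarbonate to Cps1, with 1 and 0. Chosen after their values were seen, Nags, which makes the obligate activator of Cps1, had 1 and 5 counts, while the ornithine carrier gene Slc25a15 stood at 4.92 and 4.89 FPKM and the aspartate-glutamate carrier gene Slc25a13 at 13.5 and 14.5 FPKM.

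The genes around gluconeogenesis were mostly expressed. Of 11, 8 reached 10 FPKM and 1 was below 1 FPKM, with a median of 45.2 FPKM. That median is the level of Pklr, the liver pyruvate kinase, an enzyme of glycolysis, named after its value was seen. The list is thus not confined to enzymes of the route. Mdh2 (233 ± 18.7 FPKM, SD, n = 2), Got1 (209 ± 7.41 FPKM) and Mdh1 (136 ± 2.85 FPKM), which shuttle reducing equivalents and carbon across the mitochondrial membrane, were highest. The lowest were Sds, the serine dehydratase, with 1 and 0 counts, and Slc2a2, the liver glucose transporter gene, with 102 and 82 (2.14 and 1.79 FPKM). Chosen after their values were seen, Slc37a4, the transporter that brings glucose 6-phosphate to the phosphatase, stood at 15.2 and 14.3 FPKM, and Pcx, the pyruvate carboxylase that opens the route, at 7.76 and 7.54 FPKM.

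Other amino acid breakdown genes were unevenly expressed. Among 12 tyrosine and tryptophan genes the median was 3.13 FPKM, with 4 at 10 FPKM or more and 6 under 1 FPKM. Pcbd1 (85.1 ± 2.99 FPKM, SD, n = 2) and Qdpr (44.6 ± 1.73 FPKM), which regenerate tetrahydrobiopterin, and Fah (22.7 ± 1.19 FPKM), the last enzyme of tyrosine breakdown, were highest. Kynu, with 3 and 2 counts, and Haao, with 1 and 3, both of the kynurenine route that Tdo2 opens, were lowest. Among 12 further amino acid genes the median was 0.811 FPKM, with 3 at 10 FPKM or more and 6 under 1 FPKM, led by Gldc of the glycine cleavage system (104 ± 3.91 FPKM), Bckdha of branched-chain breakdown (27.7 ± 0.414 FPKM) and Aldh4a1 of proline breakdown (13.5 ± 1.27 FPKM). Dao, with 0 and 1 counts, and Agxt2, with 2 and 1, were at the bottom.

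**Figure D3:**
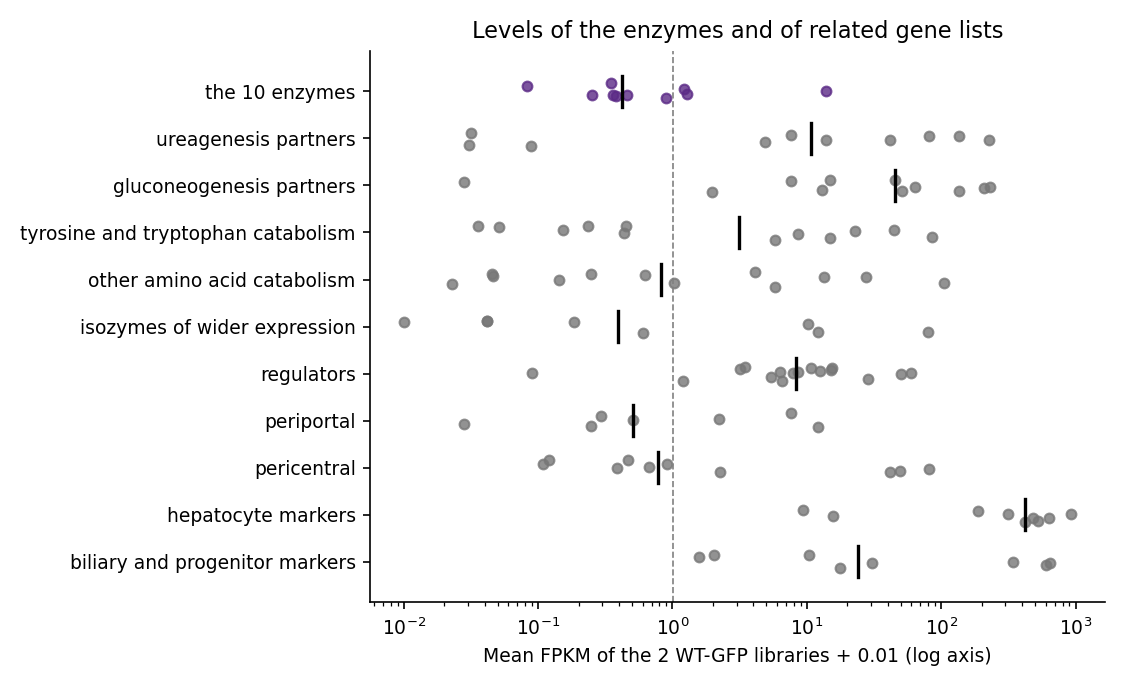
Mean FPKM of the 2 WT-GFP libraries plus 0.01 (log axis) for each gene (point) of the 10 enzymes (purple) and of related lists (grey); black bars are list medians and the dashed line marks 1 FPKM. The enzymes have a median of 0.411 FPKM, below the medians of 10.8 FPKM for ureagenesis partners, 45.2 FPKM for gluconeogenesis partners and 418 FPKM for hepatocyte markers. The partner lists also hold Glul of glutamine synthesis and Pklr of glycolysis.

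Transcripts of most regulators of these enzymes were present. Of 16, 7 reached 10 FPKM, 8 lay between 1 and 10 FPKM and 1 was below 1 FPKM, with a median of 8.26 FPKM. Cebpb stood at 59.3 ± 1.05 FPKM (SD, n = 2), Hnf4a at 50.4 ± 0.351 FPKM and Nr1h4, which encodes the bile acid receptor, at 28.7 ± 0.169 FPKM. In GENCODE the span of Hnf4a overlaps the antisense gene Hnf4aos over 34913 bases and the small RNA gene Gm25881 over 103 bases. The lowest were Gcgr, the glucagon receptor gene, with 4 and 5 counts, and Cebpa, the C/EBP factor of mature hepatocytes, with 31 and 82 counts (0.635 and 1.75 FPKM). Chosen after their values were seen, the glucocorticoid receptor gene Nr3c1 stood at 11.0 and 10.5 FPKM, Foxo1, which insulin restrains, at 8.49 and 8.73 FPKM, and the coactivator gene Ppargc1a at 3.46 and 3.48 FPKM.

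Between the libraries each gene's split of counts was set against the split of the library totals (exact binomial test, two-sided). Adjustment was by Benjamini-Hochberg over 12302 genes, those averaging 10 counts or more. The test compares 2 libraries of the same group, not conditions, and its p-values cover counting error only, not the spread between libraries, which was wider over all genes (chi-square 5.25 times its degrees of freedom). It called 14.8% of all genes and 0 of the 8 enzymes that reached the minimum, and 0 of these 8 had an unadjusted p under 0.05. The share called grew with the count: it was 4.03% of genes averaging 10 to 20 counts, 5.82% at 20 to 100, 9.11% at 100 to 1000 and 26.7% above 1000, and 6 of the 8 enzymes averaged under 100. Adjusted p-values of the 8 ran between 0.252 for Tdo2 and 1 for Cps1 by the exact binomial test. Otc and Fbp1 were under the minimum. The widest log2 ratios, replicate 2 over replicate 1 with 0.5 added to each count, were -1.20 for Tdo2, -0.79 for Arg1 and 0.59 for G6pc, and all 3 rest on means under 20 counts, where the SD of the log2 ratio over 620 genes was 0.78. Asl (-0.09) and Cps1 (0.00) had ratios close to 0. That no enzyme was called does not show equal levels.

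Of the 15 regulators tested, 2 were called, both higher in replicate 2 (8.38% of all genes were called in that direction). Cebpa stood at 1.45 on the log2 scale (adjusted p = 1.61e-05 by the exact binomial test) and Creb3l3, a liver factor of the fasting response named after its value was seen, 195 and 254 counts and a ratio of 0.44 (adjusted p = 0.0156, exact binomial test). Cebpa overlaps the antisense gene Gm45091 over 313 bases in GENCODE. Of the 7 ureagenesis partners tested, Oat, the ornithine aminotransferase, was higher in replicate 2 (log2 ratio 0.21, adjusted p = 0.000645), and Glud1 (-0.11, adjusted p = 1.15e-07) and Glul (-0.35, adjusted p = 3.58e-25) were lower, by the same exact binomial test. Among the 4 counterparts tested Cad alone was called, higher in replicate 2 (0.21, adjusted p = 0.00317, exact binomial test). Oat, Glud1, Glul and Cad each average over 1000 counts, where 26.7% of genes were called in either direction. Of the 10 gluconeogenesis partners tested, 4 were lower in replicate 2 and 0 higher, with log2 ratios for the 10 from -0.26 to -0.04. The 4, Mdh2, Got1, Pklr and Slc25a1 (the last pair named after their values were seen), average over 1000 counts, where 26.7% of genes were called in either direction (6.38% of all genes were called lower). Of 9 hepatocyte markers, 6 were called lower and 0 higher, with log2 ratios for the 9 from -0.18 to 0.23. These 6 also average over 1000 counts, where 26.7% of genes were called in either direction. The part of the markers' shift in the result was not tested. With 1 group of 2 libraries there is no pattern across conditions to which other genes could be likened.

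**Figure D4:**
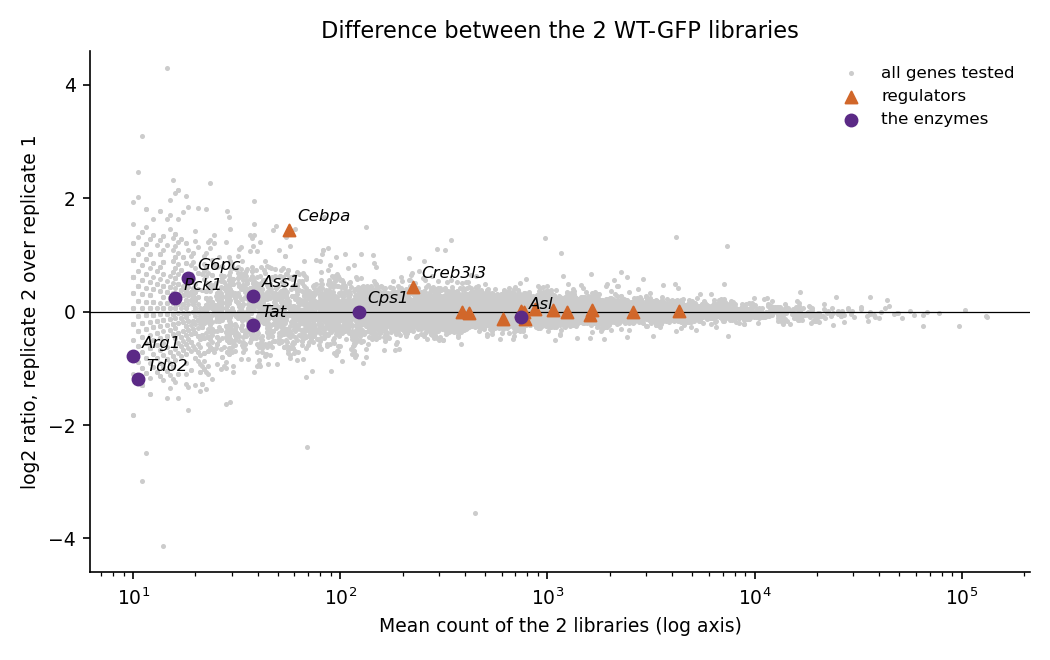
Log2 ratio of replicate 2 over replicate 1 (0.5 added to each count) against the mean count (log axis) for the 12302 genes tested (grey), the 8 enzymes tested (purple circles) and the 15 regulators tested (orange triangles). The enzymes lie within the grey cloud. Cebpa stands at 1.45, and the ratios of all genes tested run from -4.14 to 4.30.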

How the data were processed

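Stranded mRNA libraries were made from copper-treated redifferentiated hepatocytes, per the labels' protocols. Raw counts by gene symbol were deposited for the series and, per the file headers, FPKM for 2 samples. According to the submitters' processing notes, HISAT2 (2.2.1.0) was used, and both mm10 and hg38 are listed with no role. No source used here gives the counter, annotation or strand setting. Of the 9 count columns, 7 were not used, since their names match no sample label. The FPKM are the counts over library total and length: implied lengths were whole within 0.01 bp for 100% of 15545 genes with a count. They are not a second measurement.

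CPM, exact Clopper-Pearson intervals (95%), per-length ratios of counts with exact binomial intervals, and exact binomial tests were computed with scipy 1.17.1. TMM factors came from edgeR 4.0.16 and size factors from DESeq2 1.42.0. The test was checked on simulated Poisson counts, which hold no spread beyond counting error. Gene positions and alternative lengths came from GENCODE M21 (GRCm38, the assembly of mm10). The libraries differed beyond sampling noise (chi-square 5.25 times the 12301 degrees of freedom) and were counted as 2.

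The enzymes and lists were chosen with earlier results of these data known. Named genes are the 10 enzymes, the isozymes, and the 3 highest and 2 lowest of each other list by mean FPKM, and defining markers at 0. Marker genes named with a count (Cd24a, Spp1, Krt19, Msln, Wt1 and Cd68) fall outside that rule and were chosen after their values were seen, as were the exceptions stated in the text. A gene of the gluconeogenesis partner list is not reported here. Alternatives were GENCODE lengths, TMM and DESeq2 scaling, other thresholds (0.5 and 2 FPKM, no minimum, 50 counts), and leaving out each library.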

Additional observations from a re-analysis of the deposited data

How the results depend on the processing

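With GENCODE exon lengths the mean levels were 1.21 FPKM for Cps1, 0.868 FPKM for Ass1, 8.44 FPKM for Asl and 0.257 FPKM for Pck1, and the per-length ratios were 0.133 for Cps1 to Cad, 0.00734 for Pck1 to Pck2, 0.0505 for G6pc to G6pc3 and 4.94 for Tdo2 to Ido1. These shifts follow from the lengths alone, since the counts are the same. The other enzymes and ratios moved by less than the SD of the 2 libraries under these lengths, though that SD was wide for Tdo2 (0.204 FPKM). TMM scaling moved none of the 10 levels by more than that SD. At a threshold of 2 FPKM 1 enzyme was counted, at 0.5 FPKM 4, and with each library left out in turn 3. The ratio of Tdo2 to Ido1 without replicate 1 was 3.25; without replicate 2 it has only a lower bound. Of the other ratios, those with either library left out ran between 1.34 and 3.12 for Arg1 to Arg2 and 0.351 and 0.464 for Fbp1 to Fbp2. No enzyme was called by the exact binomial test under TMM or DESeq2 scaling, with no minimum count (1 of 10 at an unadjusted p under 0.05, lowest adjusted p = 0.179) or with a minimum of 50 counts (2 enzymes tested). No paired analysis was possible because every library used belongs to WT-GFP. Depth limits Otc, Fbp1, Arg1 and Tdo2, with at most 15 counts a library.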

Other observations

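Genes of the periportal and pericentral zones of the liver lobule, which in adult tissue hold the urea cycle and glutamine synthesis at opposite ends, were both expressed in part. Of 7 periportal genes outside the 10 enzymes, 1 reached 10 FPKM and 4 were below 1 FPKM, with a median of 0.497 FPKM. Hsd17b13, a lipid droplet enzyme, stood at 12.0 ± 2.60 FPKM (SD, n = 2), the glutaminase gene Gls2 at 7.60 ± 0.413 FPKM and Aldh1b1 at 2.13 and 2.27 FPKM, while Sds had 1 and 0 counts and Hal, which opens histidine breakdown, 7 and 17. Of 10 pericentral genes, 3 reached 10 FPKM and 6 were below 1 FPKM, with a median of 0.777 FPKM. Glul (81.3 ± 13.7 FPKM), Cyp2c29 (49.5 ± 8.55 FPKM) and Oat (41.8 ± 4.31 FPKM) led them, while Rhbg, an ammonium transporter gene, had 6 and 2 counts and Lgr5 11 and 6.

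Between the libraries 1 of 6 periportal genes tested was called, Hsd17b13, higher in replicate 2 (log2 ratio 0.44, adjusted p = 0.0001, exact binomial test with Benjamini-Hochberg adjustment). It averaged 463 counts, and 9.11% of genes averaging 100 to 1000 counts were called in either direction. Of 8 pericentral genes tested Glul and Cyp2c29 were lower and Oat higher (log2 ratio for Cyp2c29 -0.35, adjusted p = 2.7e-10, for Oat 0.21, adjusted p = 0.000645, same exact test). These 3 average over 1000 counts, where 26.7% of genes were called. Glul and Oat are also counted among the ureagenesis partners. Hal, with a log2 ratio of 1.28, did not pass the adjustment (adjusted p = 0.161, same exact test). All of these compare 2 libraries of the same group.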
